A study of Mus musculus with 18 samples.

Results

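Open chromatin was examined around 6 forkhead genes, Foxo1, Foxo3, Foxf1, Foxc1, Foxc2 and Foxp1, in endothelial cells (ECs) of the mouse lung. Each of 18 peak lists came from the cells of a different mouse. Peaks sharing 1 bp or more across lists were joined, and a joined region was retained when 2 or more lists had a peak in it. Of 47338 such regions, 64 belonged to the 6 loci: 62 had a start site (TSS) of one of these genes as the nearest RefSeq TSS, and 2 lay inside the Foxp1 gene with the TSS of Gm51278 nearer. Foxp1 held 31 of the regions, Foxo1 13, Foxc1 9, Foxo3 5, Foxf1 4 and Foxc2 2. The mice were FVB animals with a Col1α1-GFP transgene, in which GFP marks collagen-producing cells, and the sorted cells were CD45-/EpCAM-/GFP-/CD31+. The groups were 4: Young Sham (5 mice, 2 months old, PBS into the trachea), Young Bleo (4 mice, 2 months, bleomycin at about 1 U/kg), Aged Sham (4 mice, 18 months, PBS) and Aged Bleo (5 mice, 18 months, bleomycin at about 1 U/kg). All cells were taken at day 30 after treatment. Bleomycin injures the lung and leaves fibrosis. P-values below set group differences against the spread between mice, which can also hold differences in list length and sequencing lane. The assay was Omni-ATAC-seq, in which a transposase inserts adapters where DNA is accessible, so that a peak marks an open stretch.

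Forkhead factors bind DNA through a winged-helix domain, for which TGTTTAC is a usual core. FOXO1 and FOXO3 act downstream of insulin and growth factor signalling: AKT phosphorylates them and they leave the nucleus, and in ECs FOXO1 restrains growth and metabolism. FOXF1 is needed for the lung capillary bed, FOXC1 and FOXC2 for arterial, venous and lymphatic development, and FOXP1 is a repressor that ECs express. Opening of chromatin at a gene does not measure its RNA.

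Regions are named here by the distance of their midpoint from the most 5′ TSS of the gene, with plus for the direction of transcription. For the regions on which the results turn, the 200 bases around the strongest summit are printed from the GRCm38.p6 reference (the mm10 sequence), plus strand, 5′ to 3′, with matches to TGTTTAC (forkhead), CAGGAAG (ETS factors) and TGANTCA (AP-1), on either strand, in capitals. The Foxo3 windows are shown because a group difference was called there, in strength at the first and in presence at an unadjusted p only at the others. They lie at chr10:42251391-42251590, chr10:42242525-42242724 and chr10:42308257-42308456.
Foxo3 +25.3 kb: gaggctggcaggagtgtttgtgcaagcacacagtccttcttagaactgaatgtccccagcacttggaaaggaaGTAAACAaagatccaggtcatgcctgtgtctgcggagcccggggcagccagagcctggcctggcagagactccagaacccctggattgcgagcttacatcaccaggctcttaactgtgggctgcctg
Foxo3 +34.1 kb: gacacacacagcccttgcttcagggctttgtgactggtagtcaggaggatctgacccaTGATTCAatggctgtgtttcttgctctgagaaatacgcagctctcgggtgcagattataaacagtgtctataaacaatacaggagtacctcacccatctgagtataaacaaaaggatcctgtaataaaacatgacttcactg
Foxo3 -31.7 kb: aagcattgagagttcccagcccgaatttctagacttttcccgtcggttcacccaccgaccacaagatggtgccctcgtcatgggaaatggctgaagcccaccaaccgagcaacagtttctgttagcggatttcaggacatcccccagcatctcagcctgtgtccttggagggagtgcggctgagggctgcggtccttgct

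The Foxc1 windows, all in introns of the neighbouring gene Gmds, are shown because they held the higher signal of the bleomycin-treated young mice or the strongest peak of the locus. They lie at chr13:31830444-31830643, chr13:31915854-31916053 and chr13:32018966-32019165.
Foxc1 +23.9 kb: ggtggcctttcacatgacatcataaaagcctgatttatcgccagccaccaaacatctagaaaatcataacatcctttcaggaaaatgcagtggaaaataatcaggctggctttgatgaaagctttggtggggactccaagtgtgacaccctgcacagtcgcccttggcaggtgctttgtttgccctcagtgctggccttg
Foxc1 +109.3 kb: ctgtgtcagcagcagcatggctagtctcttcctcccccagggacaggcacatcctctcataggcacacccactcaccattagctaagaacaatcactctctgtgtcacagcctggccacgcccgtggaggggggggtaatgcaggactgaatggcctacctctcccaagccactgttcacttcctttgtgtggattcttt
Foxc1 +212.4 kb: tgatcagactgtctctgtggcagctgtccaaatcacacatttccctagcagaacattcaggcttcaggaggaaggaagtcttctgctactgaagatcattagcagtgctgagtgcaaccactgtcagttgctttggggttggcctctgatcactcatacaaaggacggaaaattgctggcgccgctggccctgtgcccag

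Of the Foxo1 and Foxp1 windows, a group difference was called at the first 3, though not all of these calls held under other settings. The call was in strength at Foxo1 −70.2 kb, and in presence by Fisher's test at an unadjusted p at Foxp1 +521.5 kb and +751.5 kb. The last window, open in every list, carries a forkhead match. They lie at chr3:52198018-52198217, chr6:98999400-98999599, chr6:98769445-98769644 and chr6:99011959-99012158.
Foxo1 -70.2 kb: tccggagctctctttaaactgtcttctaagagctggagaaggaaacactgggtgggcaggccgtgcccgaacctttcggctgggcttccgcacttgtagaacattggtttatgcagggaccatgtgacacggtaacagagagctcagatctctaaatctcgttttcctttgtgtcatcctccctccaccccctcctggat
Foxp1 +521.5 kb: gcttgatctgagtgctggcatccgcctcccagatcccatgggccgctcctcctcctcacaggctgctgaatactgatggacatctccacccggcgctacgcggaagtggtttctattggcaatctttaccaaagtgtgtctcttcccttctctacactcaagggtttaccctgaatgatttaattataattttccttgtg
Foxp1 +751.5 kb: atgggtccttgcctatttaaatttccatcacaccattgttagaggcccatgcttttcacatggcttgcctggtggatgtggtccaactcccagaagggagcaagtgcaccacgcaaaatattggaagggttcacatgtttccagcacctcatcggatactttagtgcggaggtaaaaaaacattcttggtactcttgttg
Foxp1 +508.9 kb: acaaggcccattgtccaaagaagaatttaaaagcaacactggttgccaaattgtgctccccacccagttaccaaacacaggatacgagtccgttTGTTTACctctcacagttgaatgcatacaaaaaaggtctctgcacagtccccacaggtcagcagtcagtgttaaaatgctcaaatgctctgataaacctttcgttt

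The forkhead letters were found in 3 of the 64 windows (4.69%) and in 4.45% of all 47338. These were Foxo3 +25.3 kb, with GTAAACA on the printed strand, Foxp1 +508.9 kb and Foxp1 +80.9 kb. The ETS letters were in 11 windows (17.2%, against 19.9% of all regions) and the AP-1 letters in 6 (9.38%, against 8.63%). No printed window holds overlapping matches, and a match here describes letters, not binding. Only these letters were searched, so related sequences were not counted, and a window without a match may hold such a sequence.

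The lists held between 21050 and 40883 peaks, with the smallest and the largest both in Aged Bleo (replicates 4 and 2). Background coverage, solved from the deposited statistics, was 1.26 to 1.78 fragments in Young Sham, 1.5 to 1.73 in Young Bleo, 1.02 to 1.44 in Aged Sham and 1.06 to 1.6 in Aged Bleo, with means of 1.56, 1.65, 1.16 and 1.21. A peak was called over 59.2% of all regions in Aged Sham, 63.0% in Aged Bleo, 71.9% in Young Sham and 75.1% in Young Bleo on average. By the lane numbers in the deposited file names, Young Sham and Young Bleo 4 were in lane 8, Aged Sham 1 to 3 and Young Bleo 1 to 3 in lane 7, and Aged Bleo and Aged Sham 4 in lane 6. Young Sham shared no lane with aged mice, Young Bleo none with Aged Bleo, and the ages that met in lane 7 differed in treatment, so age within a treatment and lane cannot be told apart. Treatment within an age was also largely split by lane. Only Young Bleo 4 shared lane 8 with Young Sham, and only Aged Sham 4 shared lane 6 with Aged Bleo. Promoters of 5 of 8 endothelial markers (Cdh5, Kdr, Tie1, Erg and Cldn5) had a peak in all 18 lists and Pecam1 in 17, Tek in 15 and Emcn in 7. All 5 leukocyte and all 4 epithelial marker promoters, and Col1a1, Pdgfrb and Acta2, had a peak in 0 lists, whereas Pdgfra had a peak in 18. Of the lymphatic markers, Prox1 had a promoter peak in 17 lists and Lyve1 in 7. In sorted bulk cells, a smaller share of open cells and a lower opening per cell cannot be told apart.

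The 6 loci differed in how their open regions were laid out (see the plot of all 64 regions by sample). Foxp1, a gene of 596.0 kb with 4 annotated start sites, held 23 intronic regions, 2 promoter regions and 6 intergenic regions, the farthest of them 334.0 kb from a start site. Foxo1, a gene of 81.8 kb, had 1 promoter region, 2 in introns, 2 in the 3′ UTR and 8 outside genes, and 9 of its 13 regions lay more than 50 kb from the TSS. The Foxc1 gene itself is 3.99 kb long, and 4 of its 9 regions lay in introns of Gmds. Foxo3 had a promoter region, a region 1.3 kb upstream, 2 intronic regions and 1 region 31.7 kb upstream. Over all loci, 7 regions were promoters and 31 intronic, and the median distance to the nearest own TSS was 32.8 kb, against 12.6 kb to the nearest TSS for all regions. A peak was present in all 18 lists in 19 of the 64 regions (29.7%, against 36.8% of all regions) and in 2 or 3 lists in 12 (18.8%, against 14.1%).

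**Figure D1:**
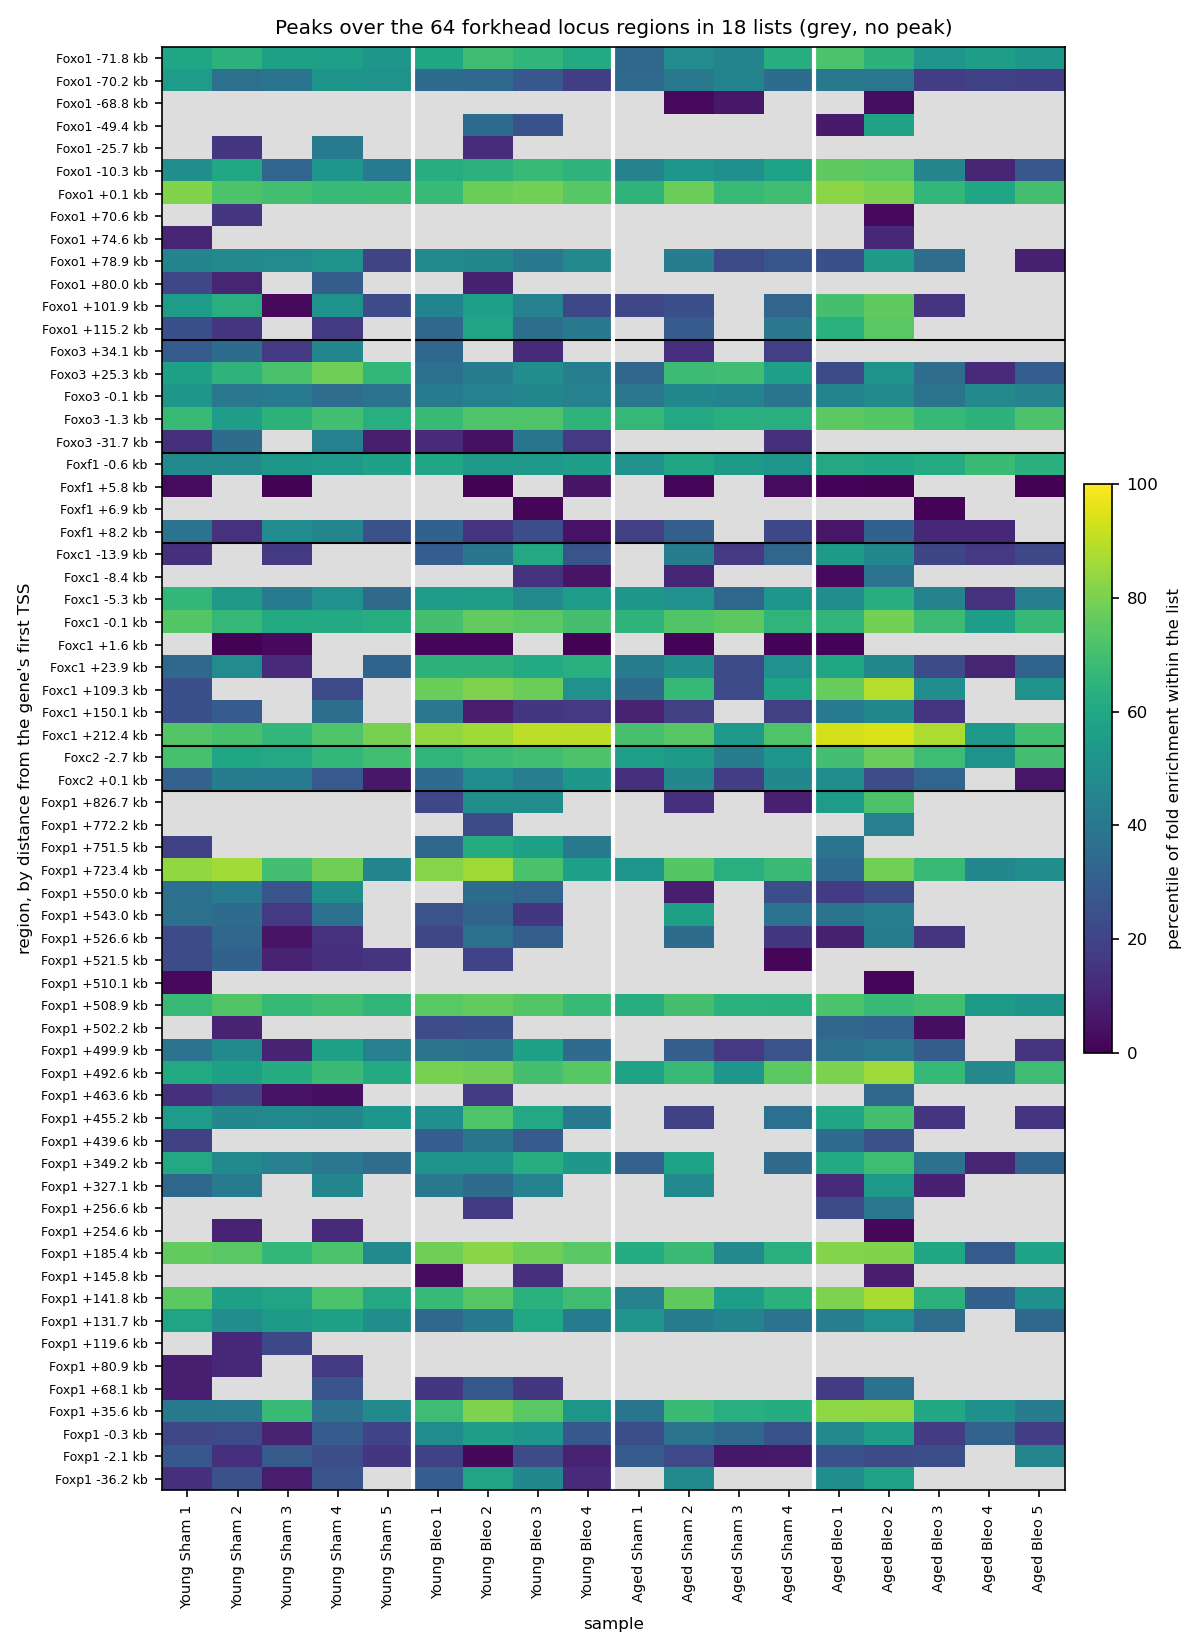
Each row is 1 of the 64 regions, named by kb from the first TSS, and each column 1 of the 18 samples. Colour gives the percentile of the peak's fold enrichment among the peaks of that list, and grey means no peak. The 19 regions coloured throughout include the promoter regions of Foxo1, Foxo3, Foxf1, Foxc1 and Foxp1.

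All 6 genes had an open promoter, and the promoters differed little in presence. Foxo1 (chr3:52267844-52268969), Foxo3 (chr10:42276471-42277055), Foxf1 (chr8:121082959-121084638), Foxc1 (chr13:31806289-31806854) and Foxp1 (chr6:99520920-99521697) had a promoter peak in 18 lists, and Foxc2 (chr8:121115940-121116512) in 17, without Aged Bleo 4. Strength is given as a within-list percentile, the rank of a peak's fold enrichment among all peaks of its list, since fold enrichment is not scaled between lists. Median percentiles were 70.1 for Foxo1, 67.7 for Foxc1, 55.4 for Foxf1, 44.0 for Foxo3, 34.9 for Foxc2 and 28.4 for Foxp1 −0.3 kb. The ranking is of enrichment over local background and not of fragments. Foxo3 had a median of 188 fragments at its promoter summit and a local background of 20.4, whereas Foxo1 had 100 fragments and a background of 5.76. The second promoter region of Foxp1, at the TSS 492.6 kb into the gene (chr6:99028024-99028781), had a median percentile of 67.8.

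The number of open regions per locus was compared between groups by an exact two-sided permutation test over samples, run for all 6764 genes with at least 3 regions (see the plot of called regions by gene). Foxo3 had 5, 5, 4, 5 and 4 of its 5 regions open in Young Sham, 5, 4, 5 and 4 in Young Bleo, 3, 4, 3 and 5 in Aged Sham, and 3 in every Aged Bleo list. Aged Bleo lay below Young Sham and Young Bleo with no overlap, and overlapped Aged Sham. The mean difference was −1.6 regions from Young Sham and −1.5 from Young Bleo, with p = 0.00794 in each exact permutation test, the smallest these group sizes allow. After Benjamini-Hochberg adjustment over all genes the values were 0.426 and 0.732. At p of at most 0.05, 8.83% of all genes were called in Aged Bleo against Young Sham and 6.51% against Young Bleo. Set against the number expected from the share of all regions called in each list, the differences were −1.15 (p = 0.0159, exact permutation) and −0.891 (p = 0.127, exact permutation), so the call against Young Bleo was lost. When each list was cut to the 21050 peaks of lowest p, the length of the shortest, the differences were −0.4 (p = 0.444, exact permutation) and 0.6 (p = 0.167, exact permutation), so the direction against Young Bleo turned. Foxo3 kept 3 regions in the cut lists. All 3 were open in every Young Sham and Aged Sham list, 2 in every Young Bleo list and in Aged Bleo 1 and 2, and 3 in the other Aged Bleo lists. Young Bleo was then lower than Young Sham by 1 region (difference −1.0, p = 0.00794, exact permutation; adjusted p = 0.136), where 18.9% of all genes were called, against −0.1 (p = 1.0, exact permutation) in the full lists. In the full lists, 3 Foxo3 regions were open in the longest list, Aged Bleo 2, and in the shortest, Aged Bleo 4. The part of list length in the Foxo3 counts was not tested.

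Foxc1 had 7, 6, 6, 5 and 4 of 9 regions open in Young Sham, 8, 8, 8 and 9 in Young Bleo, 6, 9, 6 and 8 in Aged Sham, and 9, 8, 7, 5 and 6 in Aged Bleo. Young Bleo lay above Young Sham without overlap, by 2.65 regions (p = 0.0159, exact permutation; adjusted p = 0.385), in a comparison that called 12.4% of all genes. The call was lost without Young Bleo 4 (2.4 regions, exact permutation p = 0.0536). Within lane 8, Young Bleo 4 had 9 regions open against 4 to 7 in Young Sham. The plain counts of neither aged group were called against Young Sham. Their differences were 1.65 regions in Aged Sham (p = 0.135, exact permutation) and 1.4 in Aged Bleo (p = 0.222, exact permutation). On the scale of open regions minus the number expected, Foxc1 exceeded Young Sham by 2.21 regions in Aged Bleo, by 2.36 in Young Bleo and by 2.8 in Aged Sham, each with p = 0.00794 in the exact permutation test. Adjusted p-values were 0.126, 0.127 and 0.214, and 19.1%, 19.4% and 13.8% of all genes were called in these comparisons. When each list was cut to those 21050 peaks, the differences were 1.8, 2.25 and 1.75 regions, with exact permutation p of 0.00794, 0.00794 and 0.0476 (adjusted p of 0.369, 0.136 and 0.548), where 10.1%, 18.9% and 8.69% of all genes were called. The 3 comparisons share the Young Sham mice.

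For Foxo1, Foxf1 and Foxp1 no difference in open regions passed the exact permutation test, and Foxc2, with 2 regions, was not tested. Foxp1 had 24, 23, 19, 22 and 13 of 31 regions open in Young Sham and 10, 18, 10 and 17 in Aged Sham, a mean difference of −6.45 (p = 0.0714, exact permutation, and −8.25 with p = 0.0286 without Young Sham 5), where 18.2% of all genes were called. Set against the number expected it was −2.49 (p = 0.143, exact permutation), and in lists cut to 21050 peaks it was 0 (p = 1.0, exact permutation). Young Bleo had 22, 26, 22 and 14 and Aged Bleo 23, 27, 15, 8 and 12, so the groups overlapped. Foxo1 had 6 to 10 of 13 regions open in Young Sham, 7 to 10 in Young Bleo, 5 to 8 in Aged Sham and 4 to 11 in Aged Bleo. Foxf1 had 1 to 3 of 4 over all lists, and Foxc2 had both regions open in every list but Aged Bleo 4. None of the 5 loci tested was called between Aged Bleo and Aged Sham, where 1.55% of all genes were.

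**Figure D2:**
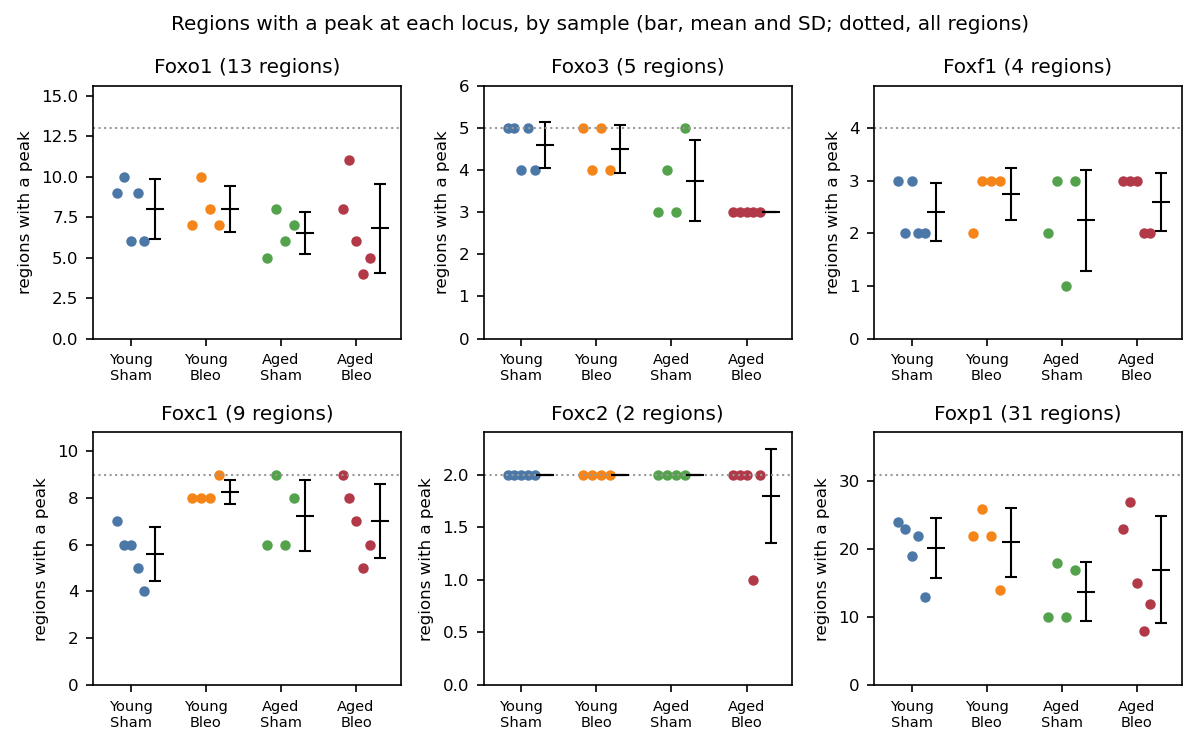
Each point is a sample and the y axis counts the regions of that locus with a peak, with the group mean and SD as a bar beside the points and the number of regions as a dotted line. All Aged Bleo samples sit at 3 for Foxo3, and the Young Bleo samples sit at 8 or 9 for Foxc1, above the Young Sham samples at 4 to 7.

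Presence of a peak at single regions was tested with a two-sided Fisher exact test, called at an unadjusted p of at most 0.05. None of the 47338 regions passed Benjamini-Hochberg adjustment in any of the 5 comparisons, so these calls are descriptive. In Aged Sham against Young Sham, 2 of the 64 regions were open in fewer samples and 0 in more, where 4.90% and 0.264% of all regions were. Young Bleo against Young Sham gave 1 with fewer and 2 with more, where all regions gave 1.96% and 3.98%. In Aged Bleo against Young Sham, 3 had fewer and 0 more, against 3.01% and 0.201% of all. Aged Bleo against Young Bleo gave 2 with fewer and 0 with more, against 2.44% and 0.123%. Aged Bleo against Aged Sham gave 0 in each direction by Fisher's exact test, against 0.410% and 0.475% of all. Limma with absent peaks set to 0 also gave 0, against 0.0951% of all. With 64 regions, these counts lay near the shares of all regions.

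At Foxo3, the 2 regions called in presence at an unadjusted p were the outermost, each with an adjusted p of 1.0 in Fisher's exact test. Foxo3 −31.7 kb (chr10:42308149-42308601) was open in 4 of 5 Young Sham, 4 of 4 Young Bleo, 1 of 4 Aged Sham and 0 of 5 Aged Bleo samples. Fisher's exact p was 0.0476 against Young Sham and 0.00794 against Young Bleo. Its summits held 10 to 20 fragments where called, low in these lists, whose median peak had 25 to 33. Foxo3 +34.1 kb (chr10:42242452-42242803), in an intron, was open in 4 of 5, 2 of 4, 2 of 4 and 0 of 5 samples, in the same order, with an exact p of 0.0476 for Aged Bleo against Young Sham. It held 11 to 21 fragments, and its window carries the AP-1 letters. With absent peaks set to 0, limma called neither. The adjusted p was 0.122 against Young Sham (−20.2 points) and 0.277 against Young Bleo (−18.0) for Foxo3 −31.7 kb, and 0.0614 against Young Sham (−25.6) for Foxo3 +34.1 kb. When peaks had to cover at least 50% of a region, Foxo3 −31.7 kb also lost its call against Young Sham (Fisher's exact p = 0.167). In lists cut to 21050 peaks neither region was kept, since fewer than 2 lists had a peak there.

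**Figure D3:**
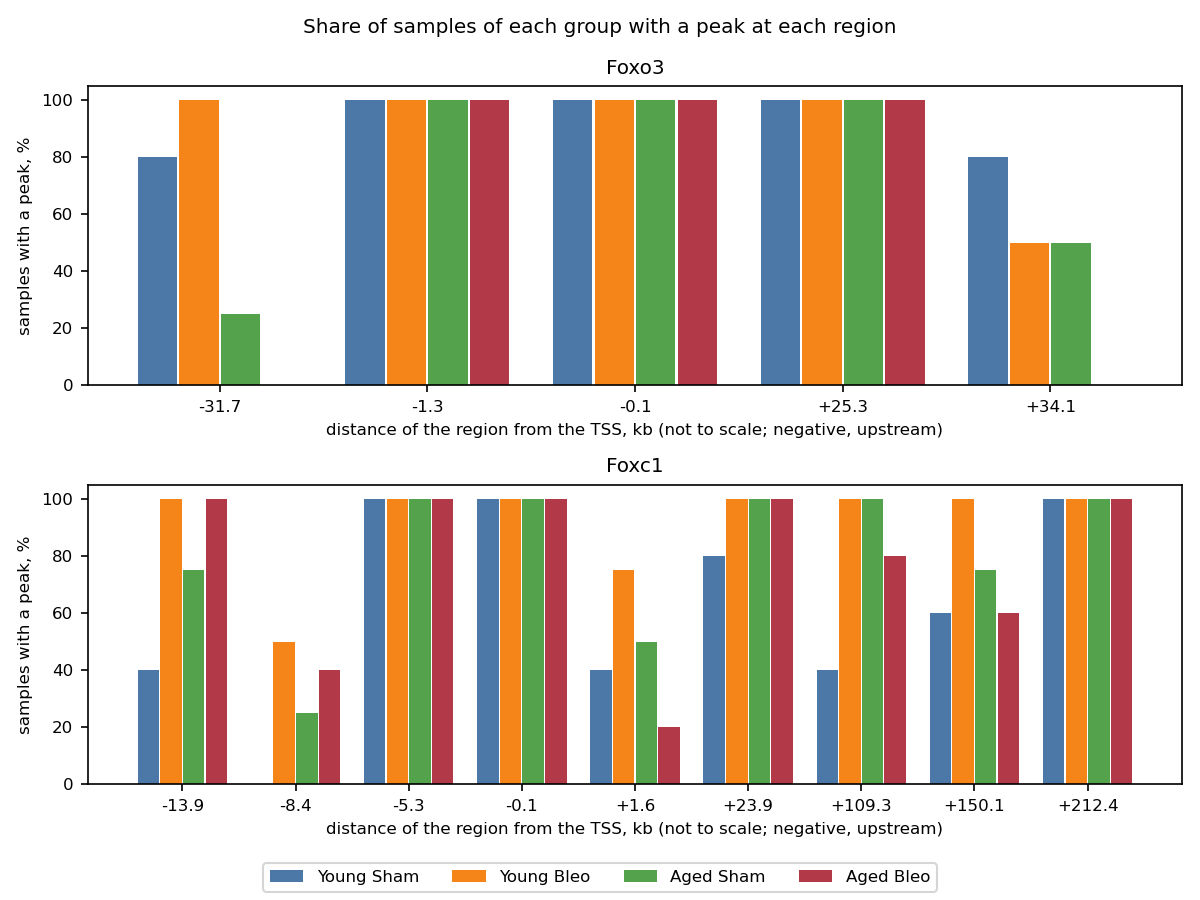
Bars give the percent of samples of each group (5 Young Sham, 4 Young Bleo, 4 Aged Sham, 5 Aged Bleo) with a peak at each Foxo3 region (top) and Foxc1 region (bottom), ordered by distance from the TSS. At Foxo3 the 3 inner regions are at 100% in all groups and the outer 2 are at 0% in Aged Bleo.

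The intronic region Foxo3 +25.3 kb (chr10:42251158-42251691), whose window holds the forkhead letters, was open in every list and fell in strength. Its percentiles were 57.4, 65.0, 71.4, 77.8 and 66.2 in Young Sham and 36.9, 41.9, 49.0 and 43.2 in Young Bleo. They were 33.1, 68.7, 69.4 and 56.3 in Aged Sham and 22.3, 51.4, 35.7, 12 and 30 in Aged Bleo. All bleomycin-treated samples lay below all Young Sham samples, while Aged Sham 2 and 3 lay within the Young Sham range and Aged Sham 1 among the treated samples. In limma across the 17432 regions open in all lists, Aged Bleo was lower than Young Sham by 37.3 percentile points (difference −37.3, SE 7.27, adjusted p = 0.00784). The difference was −24.8 (SE 7.71, adjusted p = 0.195) for Young Bleo against Young Sham and −26.6 (SE 7.71, adjusted p = 0.111) for Aged Bleo against Aged Sham. Within lanes, Young Bleo 4 (43.2) lay below the 5 Young Sham samples of lane 8, and the 5 Aged Bleo samples lay below Aged Sham 4 (56.3) in lane 6. The effect of bleomycin was not called as different between ages by limma's interaction term (−1.79 points, SE 10.9, adjusted p = 0.993). In lists cut to 21050 peaks the region was open in 5 of 5 Young Sham, 0 of 4 Young Bleo, 4 of 4 Aged Sham and 3 of 5 Aged Bleo samples. Fisher's exact p was 0.00794 for Young Bleo against Young Sham (adjusted p = 0.38), a comparison that called 3.20% of all regions as open in fewer samples.

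At the Foxo3 promoter, by contrast, values stayed within 35.7 to 52.9 over all lists, and at Foxo3 −1.3 kb (chr10:42277513-42278391) within 56.0 to 74.8. Neither was called in any comparison on the main scale.

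Regions open in all lists rank lower when a list grows shorter, as weak peaks drop out below them. The median of all 17432 regions moved by −3.62 points for Aged Sham, 0.41 for Young Bleo and −3.25 for Aged Bleo relative to Young Sham. For that reason the percentile was also taken among those 17432 regions alone, where the medians moved by 0.43, −0.03 and 0.34. On this second scale Foxo3 +25.3 kb was lower in Young Bleo (difference −29.1, SE 7.36, adjusted p = 0.0387) and in Aged Bleo (−30.1, SE 6.94, adjusted p = 0.0124) than in Young Sham. It was the 1 region of 19 called in Young Bleo, where 3.11% of all were called.

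The strength of the 19 regions open in all lists is compared with Young Sham in the plot of differences. On the main scale 2 were called in Aged Bleo against Young Sham, where 8.0% of all 17432 regions were called. In the other comparisons limma called 0 of the 19 regions, against 0.929% of all for Aged Sham and 0.648% for Young Bleo, each against Young Sham. The corresponding shares were 0.700% for Aged Bleo against Aged Sham and 0.103% for Aged Bleo against Young Bleo. At an unadjusted limma p of at most 0.05, the counts against Young Sham were 1 of 19 for Aged Sham, 6 for Young Bleo and 3 for Aged Bleo, where 19.4%, 10.6% and 26.9% of all regions were. They were 5 for Aged Bleo against Aged Sham and 1 for Aged Bleo against Young Bleo, where 15.1% and 18.7% of all were. On the second scale, the counts against Young Sham at an unadjusted limma p of at most 0.05 were 1, 9 and 11 of 19, where 15.8%, 17.8% and 27.8% of all regions were. The median difference of the 19 from Young Sham was −2.03 points for Aged Sham, 4.38 for Young Bleo and 1.74 for Aged Bleo on the main scale, and 5.43, 6.16 and 10.51 on the second, so its direction in Aged Sham depended on the scale. Regions with a higher mean than in Young Sham numbered 7, 17 and 10 of 19 on the main scale and 14, 16 and 16 on the second. The 2 regions lower in Young Bleo on the main scale were Foxo3 +25.3 kb and Foxo1 −70.2 kb.

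**Figure D4:**
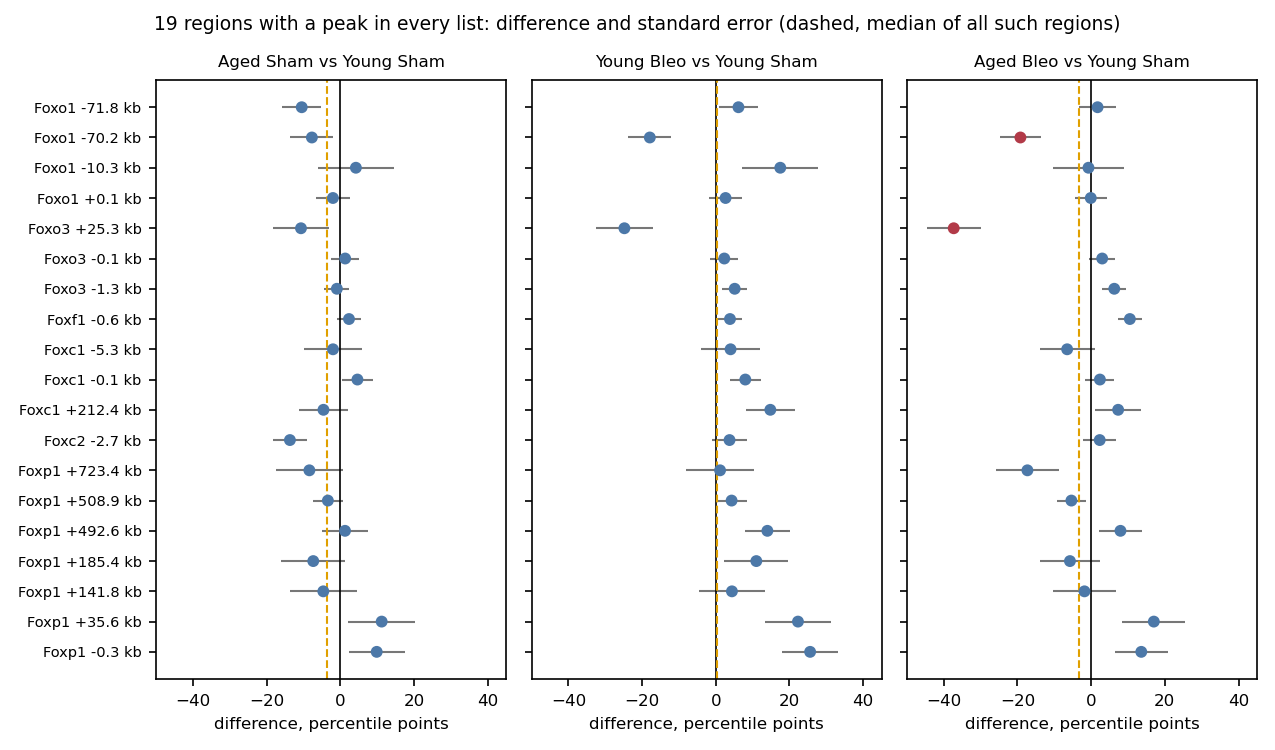
Points are differences in mean within-list percentile from Young Sham with their limma standard errors, for the 19 regions open in every list. Red points passed an adjusted p of 0.05 and the dashed line is the median of all 17432 regions open in every list. Foxo3 +25.3 kb and Foxo1 −70.2 kb lie to the left in Young Bleo and Aged Bleo.

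At Foxo1, the second region called was Foxo1 −70.2 kb (chr3:52197929-52198340), an intergenic region. Its percentiles were 54.8, 36.8, 38.3, 51.7 and 51.0 in Young Sham and 34.9, 34.0, 27.0 and 18.5 in Young Bleo. Aged Sham gave 34.2, 40.3, 45.2 and 35.5, and Aged Bleo 40.5, 39.4, 18.0, 19.9 and 18.6. Young Bleo lay below Young Sham without overlap, whereas Aged Bleo overlapped it through replicates 1 and 2. The difference in Aged Bleo was −19.2 points (SE 5.5, adjusted p = 0.0403) and in Young Bleo −17.9 (SE 5.84, adjusted p = 0.224). On the second scale the Young Bleo difference was −8.31 (SE 3.19, adjusted p = 0.174) and Young Bleo 1 lay above Young Sham 2. The Aged Bleo difference on that scale was −6.0 (SE 3.01, adjusted p = 0.2), and with the rank of −log10 p it was −16.2 (adjusted p = 0.0748). The call was also lost without any of 7 single libraries (adjusted p up to 0.1). Its neighbour 1.6 kb away, Foxo1 −71.8 kb (chr3:52196197-52196863), was the strongest open region of the locus away from the promoter, with a median percentile of 57.8. There the values were 53.1 to 64.1 in Young Sham, 59.3 to 69.5 in Young Bleo, 33.7 to 62.2 in Aged Sham and 52.2 to 71.7 in Aged Bleo, and no comparison was called. The Foxo1 promoter ranged from 59.3 to 82.7 over all lists.

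At the Foxc1 locus, Foxc1 +109.3 kb and Foxc1 +23.9 kb, in introns of Gmds, and Foxc1 −13.9 kb, upstream of the gene, were singled out here after their values were seen. Foxc1 +109.3 kb (chr13:31915724-31916127) had percentiles of 24.4 and 22 in Young Sham 1 and 4 and no peak in the other 3 Young Sham lists. In Young Bleo it had 77.7, 80.6, 77.4 and 50.7, in Aged Sham 35.4, 66.9, 22.4 and 58.0, and in Aged Bleo 76.9, 88.9, 49.1 and 51.4, with no peak in replicate 4. Its summits held 13 and 14 fragments in the 2 Young Sham lists and 42, 43, 51 and 24 in Young Bleo. Presence alone did not pass (2 of 5 against 4 of 4, Fisher's exact p = 0.167). With absent peaks set to 0, limma over all regions gave a difference of 62.3 points for Young Bleo against Young Sham (SE 14.3, adjusted p = 0.0237), where 3.46% of all regions were called. After cutting all lists to 21050 peaks it was open in 0 of 5 Young Sham, 4 of 4 Young Bleo, 3 of 4 Aged Sham and 4 of 5 Aged Bleo samples. Fisher's exact p against Young Sham was then 0.00794, 0.0476 and 0.0476 in that order, with adjusted p of 0.38, 1.0 and 1.0, and 3.69%, 1.38% and 1.10% of all regions gained peaks in these comparisons.

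Foxc1 +23.9 kb (chr13:31830296-31830821) was open in 17 lists. It had 33.3, 48.4, 12.3 and 32.2 in Young Sham 1, 2, 3 and 5 and no peak in replicate 4, against 64.7, 64.5, 61.1 and 63.2 in Young Bleo. Aged Sham gave 41.9, 49.8, 22.4 and 50.7 and Aged Bleo 59.0, 46.5, 23.4, 10.2 and 32.2. Young Bleo lay above every other list, in a narrow range. In the lists of 21050 peaks, 0 of 5 Young Sham and 4 of 4 Young Bleo samples were open (Fisher's exact p = 0.00794, adjusted p = 0.38), as were 3 of 4 Aged Sham samples (exact p = 0.0476, adjusted p = 1.0). Aged Bleo had 3 of 5 samples open there, which was not called against Young Sham.

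Foxc1 −13.9 kb (chr13:31792519-31792880) was open in 2 of 5 Young Sham, 4 of 4 Young Bleo, 3 of 4 Aged Sham and 5 of 5 Aged Bleo samples (Fisher's exact p = 0.167 for each bleomycin group against Young Sham). Its percentiles were 13.6 and 17 in the Young Sham lists with a peak, 29.7, 38.9, 60.3 and 26.1 in Young Bleo, 42.4, 16.5 and 32.7 in Aged Sham, and 54.4, 46.5, 20.9, 16.5 and 21.5 in Aged Bleo. All Young Bleo values lay above those of Young Sham, whereas 1 list of each aged group lay between the 2 Young Sham values.

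Foxc1 +212.4 kb (chr13:32018791-32019396) was the strongest region of the locus, with a median percentile of 73.8. It had 73.4, 70.8, 66.1, 72.3 and 79.4 in Young Sham and 83.8, 85.6, 89.9 and 89.5 in Young Bleo, which did not overlap. Aged Sham had 71.0, 74.1, 53.8 and 72.3, and Aged Bleo 93.4, 94.4, 87.5, 53.7 and 69.7. The difference in Young Bleo was 14.8 points (SE 6.67, adjusted p = 0.439), and the second scale gave 28.1 (SE 8.29, adjusted p = 0.0725). The Aged Bleo difference was 7.32 (SE 6.29, adjusted p = 0.475), called only on the second scale (24.7, SE 7.81, adjusted p = 0.0491). The Foxc1 promoter ran from 60.6 to 73.6 in Young Sham, 70.6 to 75.9 in Young Bleo, 65.0 to 74.8 in Aged Sham and 55.8 to 79.2 in Aged Bleo and was not called.

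**Figure D5:**
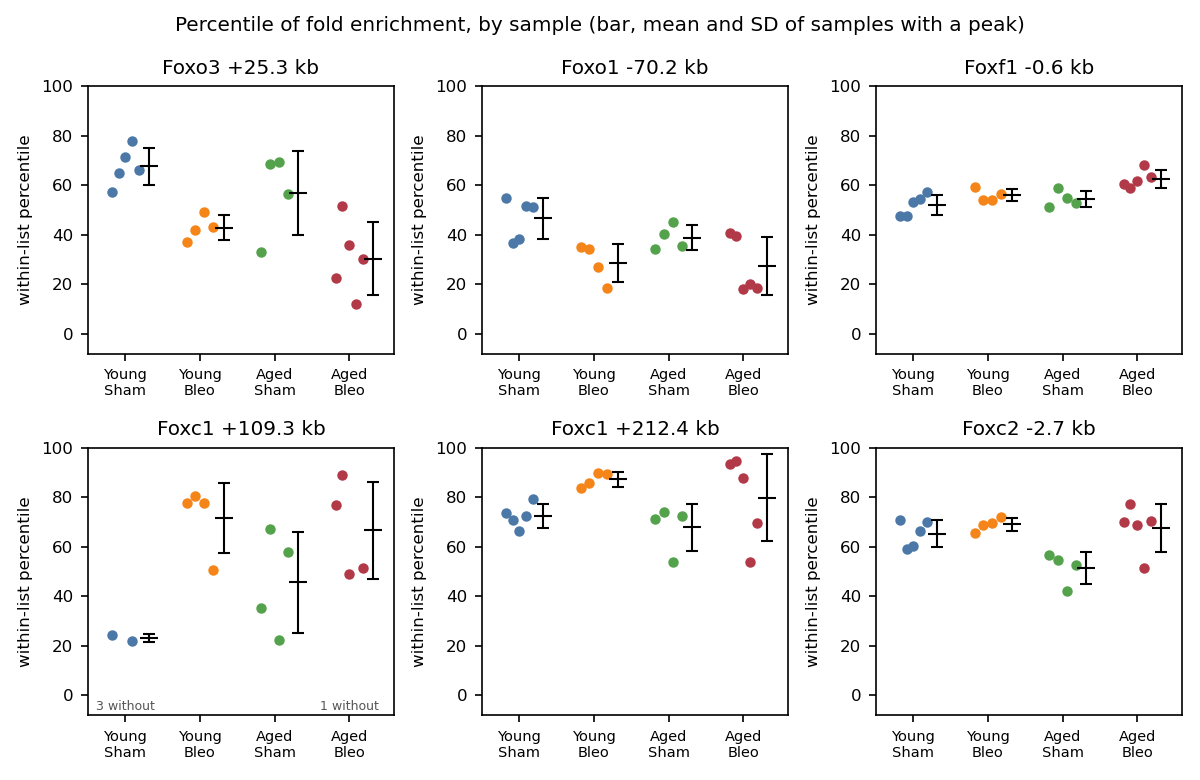
Each point is the within-list percentile of 1 sample at the named region, with the mean and SD of the samples with a peak as a bar, and samples without a peak are counted at the foot. Young Bleo lies below Young Sham at Foxo3 +25.3 kb and above it at both Foxc1 regions.

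The Foxf1 promoter region is 1680 bp wide and covers the start of Fendrr, a long noncoding RNA gene on the opposite strand, as well as that of Foxf1. Its percentiles were 47.7, 47.6, 53.1, 54.2 and 57.2 in Young Sham, 59.1, 54, 54.1 and 56.2 in Young Bleo, 51.2, 58.8, 54.6 and 52.6 in Aged Sham, and 60.3, 59.0, 61.5, 68.2 and 63.4 in Aged Bleo. Aged Bleo lay above both sham groups without overlap, but on the second scale it overlapped both. The difference was 10.5 points from Young Sham (SE 3.18, adjusted p = 0.0501) and 8.18 from Aged Sham (SE 3.37, adjusted p = 0.254), so neither passed on the main scale of within-list percentiles. Against Young Sham it passed with the rank of −log10 p (8.42, adjusted p = 0.00684), on the second scale (20.5, adjusted p = 0.0445) and without Aged Bleo 2, the largest list (11.4, adjusted p = 0.0363). Against Aged Sham it passed with the rank of −log10 p (9.62, adjusted p = 0.0105) but not on the second scale (9.07, adjusted p = 0.537). With replicate number as a block neither passed (adjusted p = 0.0764 against Young Sham and 0.395 against Aged Sham). The other 3 Foxf1 regions, 5.8 to 8.2 kb downstream, had median percentiles of 0.854, 1.30 and 22.6.

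At Foxc2, the region Foxc2 −2.7 kb (chr8:121113288-121113730) was stronger than the promoter. It had 70.8, 58.9, 60.2, 66.1 and 69.9 in Young Sham, 65.6, 68.6, 69.6 and 71.9 in Young Bleo, 56.6, 54.6, 42.2 and 52.5 in Aged Sham, and 70.0, 77.1, 68.8, 51.4 and 70.3 in Aged Bleo. Every Aged Sham sample lay below every Young Sham sample (difference −13.7, SE 4.68, adjusted p = 0.13), but on the second scale the groups overlapped and the difference was −8.55 (SE 5.59, adjusted p = 0.488). Aged Bleo was 16.0 points above Aged Sham (SE 4.68, adjusted p = 0.112), a call reached only without Aged Bleo 4, the shortest list (20.1, adjusted p = 0.0204). The Foxc2 promoter ranged from 5.89 to 53.2 among the 17 lists with a peak.

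Foxp1 held 4 of the 6 regions called in presence. Foxp1 +521.5 kb (chr6:98999272-98999629), in an intron, was open in 5 of 5 Young Sham samples, 1 of 4 Young Bleo, 1 of 4 Aged Sham and 0 of 5 Aged Bleo. Fisher's exact p was 0.0476 for Young Bleo, 0.0476 for Aged Sham and 0.00794 for Aged Bleo, each against Young Sham. With absent peaks set to 0, limma called it in Aged Sham (−18.0 points, SE 4.3, adjusted p = 0.0393) and Aged Bleo (−18.5, SE 4.06, adjusted p = 0.0139), where 2.21% and 5.86% of all regions were called, but not in Young Bleo (−13.4, adjusted p = 0.102). When peaks had to cover at least 50% of a region, the calls in Aged Sham and Young Bleo were lost (exact p = 0.206 each). Its peaks were weak, with 12 to 24 fragments and percentiles of 1.84 to 30.9, and no such region was kept in lists cut to 21050 peaks. Foxp1 +463.6 kb (chr6:99057177-99057633) was open in 4, 1, 0 and 1 samples of the 4 groups in the same order (exact p = 0.0476 for Aged Sham against Young Sham), with 10 to 15 fragments. That call was lost with a −log10 q of at least 5 and with the 50% cover rule (exact p = 0.444 each) and in limma with absent peaks set to 0 (−8.59 points, adjusted p = 0.496).

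A pair of regions beyond the 3′ end of Foxp1 had a peak in more Young Bleo than Young Sham samples, with an adjusted p of 0.801 for each in Fisher's exact test. Foxp1 +751.5 kb (chr6:98769279-98769696) was open in 1 of 5 Young Sham, 4 of 4 Young Bleo, 0 of 4 Aged Sham and 1 of 5 Aged Bleo samples. Fisher's exact p was 0.0476 for Young Bleo against Young Sham and 0.0476 for Aged Bleo against Young Bleo. Limma with absent peaks set to 0 called the region in the first (44.3 points, SE 7.94, adjusted p = 0.0059) and in the second (−40.5, SE 7.94, adjusted p = 0.0285), where 0.756% of all regions were called. Its percentiles were 33.5, 61.8, 57.0 and 40.4 in Young Bleo, against 19.2 in the single Young Sham list and 38.3 in the single Aged Bleo list with a peak. The single Young Bleo sample in lane 8 was open, as was 1 of the 5 Young Sham samples there. In lists cut to 21050 peaks the share of open samples was 50 percentage points higher in Young Bleo (exact p = 0.167). Foxp1 +826.7 kb (chr6:98694105-98694572) was open in 0, 3, 2 and 2 samples in the same order (exact p = 0.0476 for Young Bleo against Young Sham). In lists cut to 21050 peaks its share of open samples was equal in Young Bleo and Young Sham, so that call was lost. With absent peaks set to 0, limma did not call it (30 points, adjusted p = 0.273). All 6 Foxp1 calls with p = 0.0476 were lost without any of 8 of the 9 libraries compared (exact p up to 0.143), and each held without the ninth, which was Aged Sham 4 or Young Bleo 2 at +521.5 kb, Young Sham 5 at +463.6 kb, Young Sham 1 or Aged Bleo 1 at +751.5 kb and Young Bleo 4 at +826.7 kb.

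In lists cut to 21050 peaks, the intronic region Foxp1 +131.7 kb (chr6:99388815-99389712) was open in 5 of 5 Young Sham, 1 of 4 Young Bleo, 4 of 4 Aged Sham and 2 of 5 Aged Bleo samples (Fisher's exact p = 0.0476 for Young Bleo against Young Sham, adjusted p = 0.692). Its percentiles in the full lists were 48.9 to 58.5 in Young Sham and 33.5, 40.3, 59.9 and 41.3 in Young Bleo, which overlapped.

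In all lists, 7 Foxp1 regions were open. The strongest away from promoters was Foxp1 +185.4 kb (chr6:99335290-99335864), with a median percentile of 69.9 and values of 48 to 76.1 in Young Sham, 74.6 to 82.4 in Young Bleo, 47.2 to 68.0 in Aged Sham and 28.2 to 81.6 in Aged Bleo. Foxp1 −0.3 kb, over the first promoter, had 9.73 to 29.1 in Young Sham and 27.6 to 55.9 in Young Bleo (difference 25.6, SE 7.61, adjusted p = 0.166). Foxp1 +492.6 kb, over an inner promoter, had 56.7 to 68.1 in Young Sham, 70.5 to 79.6 in Young Bleo, 52.1 to 74.8 in Aged Sham and 47.1 to 85.3 in Aged Bleo. Its difference from Young Sham was 14 in Young Bleo (SE 6.19, adjusted p = 0.428) and 7.95 in Aged Bleo (SE 5.83, adjusted p = 0.395), and the second scale called the latter (23.7, SE 6.30, adjusted p = 0.0242). On that scale 5 of the 19 regions were called in Aged Bleo, against 10.6% of all, the fifth being Foxo3 −1.3 kb (18.0, SE 5.13, adjusted p = 0.0324). Of these 5, only Foxo3 +25.3 kb was lower.

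The other forkhead genes and the genes around FOXO activity were counted for comparison. Of 38 other forkhead genes, 11 had a promoter peak in all 18 lists, 22 in none and 5 in some. Such a peak can belong to a region assigned to another gene: Foxa3, among the 11, had 0 regions of its own. Their 98 regions gave 2 with fewer and 0 with more open samples for Aged Sham, 3 and 3 for Young Bleo, and 1 and 0 for Aged Bleo, each against Young Sham. Aged Bleo against Young Bleo gave 5 with fewer (5.1%, against 2.44% of all) and 0 with more. As shares of the 98, fewer open samples were seen in 2.04%, 3.06% and 1.02%, against 4.90%, 1.96% and 3.01% of all regions, and more in 3.06% for Young Bleo, against 3.98%. Among the genes of the AKT and FOXO pathway and known FOXO targets, the kinase gene Akt1 and the targets Angpt2, Klf2 and Sod2 had a promoter peak in all 18 lists. Of the 153 regions of 24 such genes, 9 had fewer open samples in Aged Sham and 9 in Aged Bleo against Young Sham, 5.88% in each case, against 4.90% and 3.01% of all regions, and 0 had more. In Young Bleo, 4 had fewer (2.61%, against 1.96% of all) and 2 more (1.31%, against 3.98%). Aged Bleo against Young Bleo gave 3 with fewer (1.96%, against 2.44%) and 0 with more.

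Across the 18 samples, the counts of open regions most like those of Foxo1, after the share of regions called in each list was taken out, were those of Macf1 (Pearson r = 0.773 across samples) and Dst (0.768). For Foxp1 they were Ppp1r16b (0.841) and Zfp608 (0.827). These were the 2 highest of 842 genes with at least 10 regions in each case, and the samples share lanes and depth.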

How the data were processed

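Each of 18 mice gave 1 list of Omni-ATAC-seq peaks from sorted lung ECs. The authors aligned reads to mm10 with BWA and ran MACS2 on every sample by itself at a false discovery rate of 1%. An input control and a shift of the cut sites are not given in the sources used here. The deposited lists give for every peak a fold enrichment over local background (a ratio), and the −log10 p-value and −log10 q-value of the caller. A deposited score column was not used. The study compared counts with DiffBind, which needs reads not analysed here. Fold enrichment was ranked within a list, since lists called one by one share no scale. Fragments at a summit and the local background were solved from fold enrichment and −log10 p (at least 99.986% of values within 0.02 of a whole number, and none solved above a −log10 p of 250).

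Autosomal, X and Y peaks were joined into regions and assigned to the nearest of 45756 RefSeq transcripts (GRCm38.p6), and 19 mitochondrial peaks in 5 lists were left out. A promoter ran from 1000 bp before to 100 bp after a TSS. Presence was compared with Fisher's exact test, strength with limma 3.58.1 (R 4.3.3) over regions open in all lists, and open regions per gene with exact permutation tests (Python 3.11.15, scipy 1.17.1), all two-sided, with Benjamini-Hochberg adjustment over all regions or genes tested. The scripts were tested on simulated data. Regions named with values are those nearest each TSS, those with a Fisher p of at most 0.05, and the strongest region of each gene away from promoters that was open in all lists; a few more were singled out on their values. The members and gene lists were chosen with earlier results of these data known. Alternatives were other thresholds, overlaps, ranks and list lengths, a replicate block, and each replicate left out. Some genes of the pathway list are not reported here by name.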

Additional observations from a re-analysis of the deposited data

Results flagged for a closer look

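Among 100 groups of 4 or 5 samples checked for a sample far from the rest of its group, 7 held one by Dixon's test. Chance gives one in about 1 in 20 groups of continuous values. That rate does not hold for the 3 counts of open regions given first, where the other samples tie and any difference of 1 region passes. In Young Bleo, replicate 1 had 2 open Foxf1 regions where the others had 3, and replicate 4 had 9 open Foxc1 regions where the others had 8. In Aged Bleo, replicate 4, the shortest list, had 1 open Foxc2 region where the others had 2. At the Foxo3 promoter, Aged Bleo 3 had a percentile of 38.4, against 44.7 to 47.3 in the others. At Foxc1 −5.3 kb, Young Bleo 3 had 47.6, against 55.1 to 55.7, and Aged Sham 3 had 33.5, against 50.5 to 53.1. At Foxc1 +212.4 kb, Aged Sham 3 had 53.8, against 71.0 to 74.1. The bleomycin effect was also compared between ages: limma's interaction term passed adjustment in 0 of 17432 regions and had an unadjusted p of at most 0.05 in 1158, of which 0 were among the 19 regions of these loci.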

How the results depend on the processing

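The counts of forkhead locus regions called in presence were 2 for Aged Sham, 3 for Young Bleo and 3 for Aged Bleo against Young Sham, 0 in Aged Bleo against Aged Sham and 2 in Aged Bleo against Young Bleo. When peaks had to cover at least 50% of a region these became 0, 5, 6, 3 and 5 of 64, where 6.46%, 7.02%, 5.99%, 1.18% and 5.74% of all regions were called. A −log10 q of at least 5 gave 1 of 63 for Aged Sham against Young Sham, where 5.42% of all regions were called. Limma with absent peaks at 0 gave, in the order of the first sentence, 1, 2, 2, 0 and 1. The shares of all regions called were 2.21%, 3.46%, 5.86%, 0.0951% and 0.756%. Among the limma calls were Foxc1 +109.3 kb and Foxo3 +25.3 kb, which Fisher's test did not call. Lists cut to 21050 peaks left 36 regions and gave, in the order of the first sentence, 2, 4, 1, 0 and 0, where 2.93%, 6.89%, 3.07%, 1.47% and 1.76% of all were called. These calls were at regions that Fisher's test did not call in the full lists. In cut lists the Foxo3 difference in open regions against Young Bleo turned from −1.5 to 0.6 (p = 0.167, exact permutation). Of the 10 main presence calls, 9 held with the stricter q, 6 with the cover rule, 4 with limma and 0 of the 3 that could be computed with cut lists. With 1 replicate left out the counts ran from 0 to 1 for Aged Sham and from 0 to 1 for Young Bleo against Young Sham, from 3 to 6 for Aged Bleo against Young Sham (6 without Young Sham 3 or 5), and from 1 to 2 for Aged Bleo against Young Bleo. The cause of these changes was not tested.

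In strength, 2 regions were called in Aged Bleo against Young Sham, 5 with percentiles among regions open in all lists, and from 1 to 3 with a replicate left out (1 without any of Aged Bleo 3, 4 and 5 or Young Sham 1, 2 and 4). Young Bleo against Young Sham gave 0, and 1 among regions open in all lists. Aged Bleo against Aged Sham gave 0, 1 with the rank of −log10 p (the Foxf1 promoter), and from 0 to 1 with a replicate left out. Foxo3 +25.3 kb kept its call in Aged Bleo against Young Sham in all 10 fits without 1 replicate (−42.5 to −32.7 points, adjusted p by limma from 0.00274 to 0.0268). The number of Foxo3, Foxc1 and other locus comparisons passing the permutation test was 3, and from 2 to 4 with 1 replicate left out. Foxc1 in Young Bleo lost its call in 1 of 9 such tests (exact permutation p from 0.0179 to 0.0536). Replicate numbers did not pair the samples: correlations of 25 pairs sharing a number ran from −0.258 to 0.359, with 7 above 0.1. With replicate number as a block, 1 strength call remained in Aged Bleo against Young Sham, Foxo3 +25.3 kb, and 0 in the others. Peak lists give no counts, so differences below the calling threshold could not be seen, and distal Foxo3 and Foxp1 peaks of 10 to 24 fragments lie close to it.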
